A study of Trichoderma guizhouense with 100 samples.

Results

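Xylan, the main hemicellulose of grass and hardwood cell walls, is a chain of xylose units that carries arabinose, acetyl and glucuronic acid side groups. Endoxylanases cut inside this chain, and those of fungi belong mostly to the glycoside hydrolase (GH) families GH10 and GH11, with a smaller group in family GH30. Many GH30 xylanases recognise the glucuronic acid side groups. The 3 genes described here, OPB43779, OPB40699 and OPB45639, are the GH30 endoxylanases of the filamentous fungus Trichoderma guizhouense NJAU4742, and they were taken by their identifiers as 3 of the 11244 genes in the expression table. The table annotates OPB43779 and OPB45639 as endo-β-xylanases of family GH30, the latter as XYN4, and OPB40699 only as a member of family GH30.

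RNA was sequenced from mycelium of the wild type (WT) and of 3 deletion strains, ∆Tgxyr1, ∆Tgace1 and ∆Tgace2, in each of which a transcription factor gene had been replaced by a hygromycin resistance gene. In the related species T. reesei, Xyr1 is the main activator of cellulase and xylanase genes and ACE1 is a repressor of them. All strains were first grown on glucose (the 0 h samples) and then moved to xylan, to Avicel (a microcrystalline cellulose) or, for WT and ∆Tgxyr1 only, to medium with no carbon source (carbon starvation, CS), with sampling at 4, 24 and 72 h. This gave 34 groups and 100 libraries (28 of WT, 30 of ∆Tgxyr1, 21 each of ∆Tgace1 and ∆Tgace2), with 3 libraries a group except WT under CS at 4 and 72 h, which had 2. The study's methods name the replicates as biological. Expression is given as RPKM, a read count scaled to transcript length and to the number of mapped reads, so levels of different genes can be set side by side. Mycelium was sequenced in bulk, so more RNA per hypha and more hyphae with the RNA cannot be told apart.

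Low RPKM values fell on whole multiples of a step, the value of 1 read, and 97.1% of 44303 low values lay within 0.1 of a whole read. For the GH30 genes that step was between 0.0359 and 0.281 RPKM, depending on the library, and all 68 of their low values fitted it to the same tolerance. A floor of 3 reads was used where a gene was at 0 in every library of a group. TgXyr1 (OPB38038) did not exceed 0.168 RPKM in any ∆Tgxyr1 library, against 1.29 to 143 in WT. Such a check is not reported here for the other deletion strains. In 9 of the 100 libraries the most similar library, by correlation over all genes, belonged to another group. These included WT on Avicel at 72 h replicate 2, which was closest to a WT library under CS at 72 h (r = 0.972), ∆Tgace1 on xylan at 24 h replicate 2, ∆Tgace1 on Avicel at 24 h replicate 1 and ∆Tgace1 on Avicel at 72 h replicate 3. These libraries were used as labelled.

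Differences were tested on log2(RPKM + 1) with limma over all 34 groups and 10026 genes, and are given as log2 differences with their standard error (SE). On this scale changes of genes near 0 are understated. A difference was called where the Benjamini-Hochberg adjusted p was at most 0.01, the log2 difference at least 2 in size and the higher mean above 2 RPKM. This fit uses 1 spread per gene for all groups. The pooled SD of OPB43779 was 1.06 on the log2 scale, whereas its SD was 3.05 in WT on Avicel at 24 h, 4.02 at 72 h and 0.22 in ∆Tgace2 on Avicel at 24 h. Of the 63 calls made for the GH30 genes over 270 tests, 20 were also made in a fit restricted to the compared groups, and 42 were made with any single library left out. Of the 27 calls that involved WT on Avicel or a WT response, 0 were made in that restricted fit. The shares of calls kept over all genes are not given here, so this loss cannot be read as particular to the GH30 genes.

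**Figure D1:**
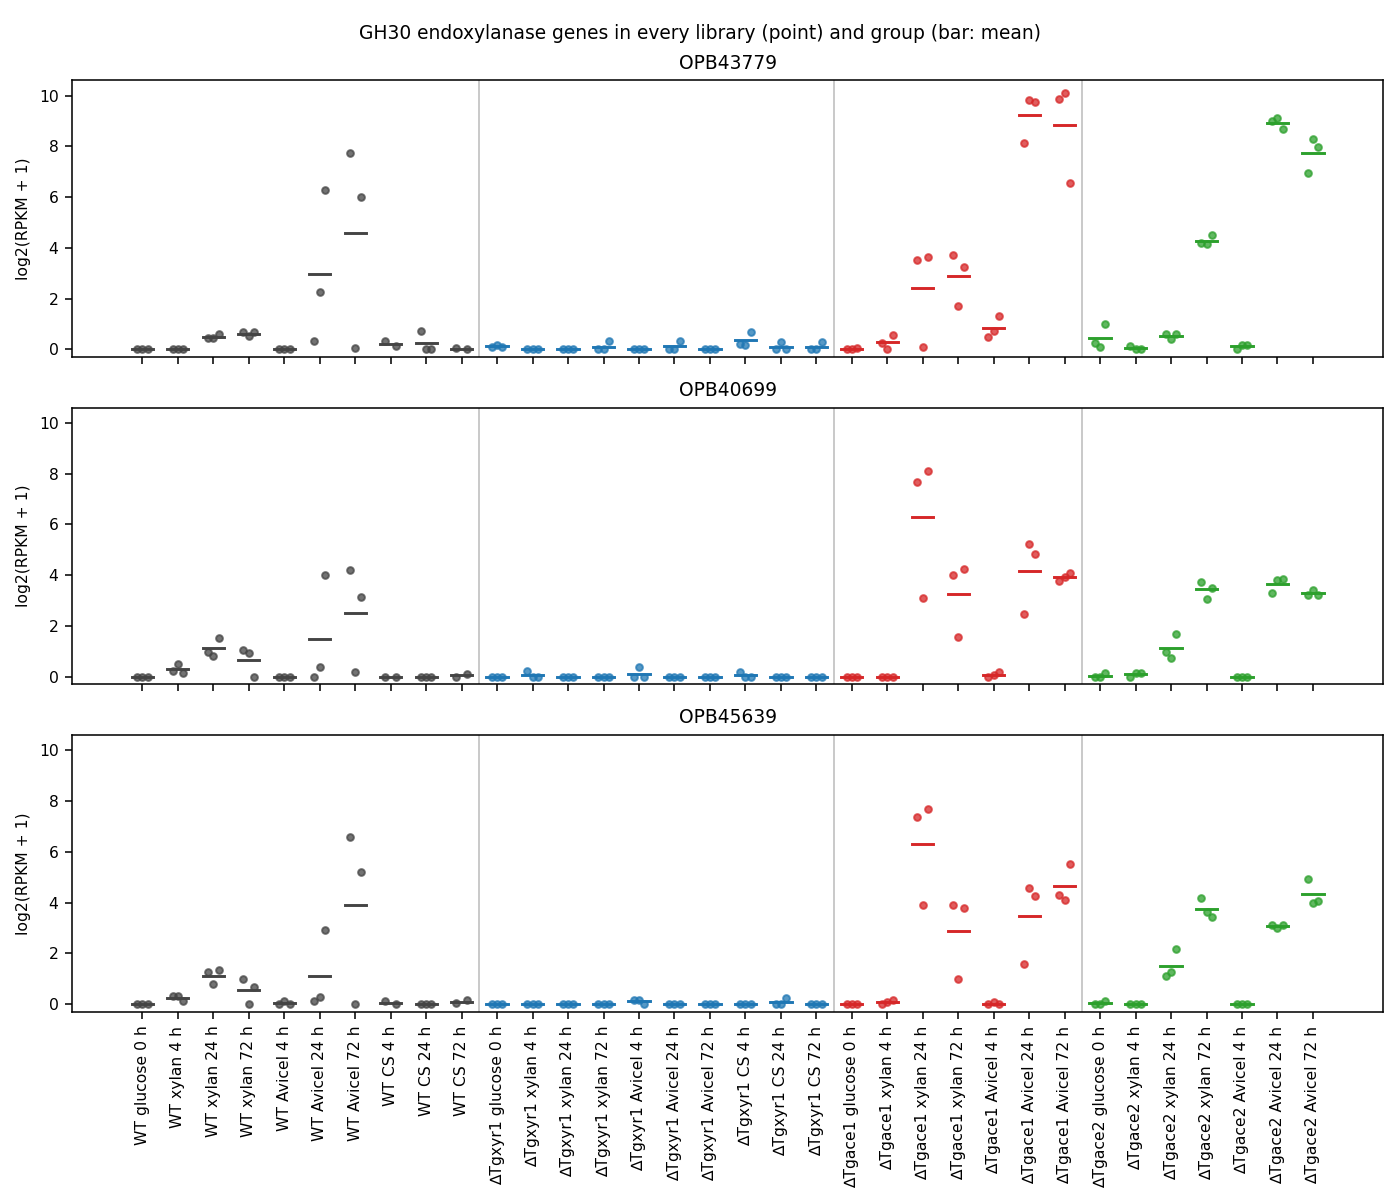
Expression of the GH30 endoxylanase genes as log2(RPKM + 1) in each of the 100 libraries (points) of the 34 groups, with group means as bars; colours separate WT, ∆Tgxyr1, ∆Tgace1 and ∆Tgace2. OPB43779 was highest on Avicel in ∆Tgace1 and ∆Tgace2, OPB40699 and OPB45639 were highest on xylan at 24 h in ∆Tgace1, and no ∆Tgxyr1 library was above 0.610 RPKM.

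The GH30 endoxylanase genes were silent on glucose in WT and came up on Avicel, but not in every replicate culture. On glucose, none of the 3 genes had a read in any of the 3 WT libraries, and after 4 h on Avicel only OPB45639 had a single read in 1 library. At 24 h on Avicel OPB43779 was at 0.244, 3.74 and 77.6 RPKM in replicates 1, 2 and 3, and its 72 h values were 210.4, 0.0436 and 62.5 RPKM. So 1 replicate was high at 24 h and a pair at 72 h, while the lowest libraries held 3 reads and 1 read. The other 2 genes were high and low in the same libraries. For OPB40699 the 24 h values were 0, 0.312 and 15.3 RPKM and those of 72 h were 17.5, 0.136 and 7.78 RPKM. For OPB45639 they were 0.0799, 0.221 and 6.66 RPKM and then 93.9, 0 and 36.2 RPKM.

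Other genes of cellulose breakdown followed the same order of libraries. In WT on Avicel the exoglucanase gene cbh1 (OPB45635) had 24 h values of 7.00, 118.7 and 2695 RPKM and 72 h values of 4670, 0.972 and 894.8 RPKM. TgXyr1 in WT on Avicel had 24 h values of 12.4, 14.995 and 79.6 RPKM in replicates 1, 2 and 3, the replicate order of the GH30 genes. Its 72 h values were 143, 36.3 and 17.7 RPKM. Replicate 1 was then its highest library, as for the GH30 genes. Replicate 2, where the GH30 genes were lowest, was not its lowest library.

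Against 0 h, 4 of the 9 gene and time combinations on Avicel were called higher in WT. OPB43779 rose at 24 h (log2 difference 2.95, SE 0.84, limma adjusted p = 0.00194), where 6.88% of all genes tested were called higher, and all 3 genes rose at 72 h, where 2.85% were. The 72 h differences were 4.59 (SE 0.84, adjusted p = 1.13e-05) for OPB43779, 2.51 (SE 0.66, adjusted p = 0.00182) for OPB40699 and 3.93 (SE 0.71, adjusted p = 8.25e-06) for OPB45639. Against the floor of 3 reads per glucose library, the 72 h means were at least 326-fold, 29.1-fold and 158-fold higher. The median difference of the GH30 genes at 72 h was 3.93, beside -0.02 over all genes tested. Without replicate 3 the 24 h call on OPB43779 was lost (1.28, adjusted p = 0.192), and without replicate 1 or replicate 3 at 72 h the OPB40699 call was lost (1.66 and 2.20, adjusted p = 0.0590 and 0.0117). Without replicate 2 at 72 h the difference of OPB43779 was 6.86, and without replicate 1 it was 3.03 (2.61 for OPB45639), all still called. With only the 2 groups in the fit, adjusted p was 0.132 at 24 h for OPB43779 and 0.322, 0.305 and 0.325 at 72 h for OPB43779, OPB40699 and OPB45639.

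On xylan the WT levels were low at all times, but they were not 0. At 24 h OPB43779 was at 0.351, 0.376 and 0.521 RPKM, OPB40699 at 0.976, 0.784 and 1.90 RPKM and OPB45639 at 1.38, 0.741 and 1.54 RPKM. That corresponds to 3 to 4 reads a library for OPB43779, 6 to 14 for OPB40699 and 6 to 12 for OPB45639, all in libraries of a strain that had none on glucose. Measured against the floor on glucose, these means were at least 1.49-fold, 4.19-fold and 4.44-fold higher. None of the 9 xylan combinations was called by limma (0 had an unadjusted p under 0.05), where 6.33%, 4.58% and 8.94% of all genes were called higher at 4, 24 and 72 h, and none could be, since no group mean reached 2 RPKM. The differences at 24 h were 0.50 (SE 0.84, adjusted p = 0.679), 1.12 (SE 0.66, adjusted p = 0.167) and 1.13 (SE 0.71, adjusted p = 0.197). In the fit restricted to WT xylan at 24 h and 0 h, adjusted p was 0.00183, 0.00597 and 0.00271 for these differences, which stay under the fold limit. At 72 h the values were 0.588, 0.436 and 0.612 RPKM for OPB43779, 1.07, 0.908 and 0 for OPB40699, and 1.01, 0 and 0.602 for OPB45639. Under CS no WT library exceeded 0.641 RPKM for OPB43779, 0.0805 for OPB40699 or 0.114 for OPB45639, and none of the 9 combinations was called by limma (0 with an unadjusted p under 0.05). Here too none could be called, the group means being below 2 RPKM.

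Set directly against xylan, Avicel gave higher levels at 72 h in WT for OPB43779 (3.97, SE 0.84, adjusted p = 7.86e-05) and OPB45639 (3.37, SE 0.71, adjusted p = 6.91e-05), where 2.83% of all genes tested were called higher. Each was lost without WT Avicel replicate 1 (2.40 and 2.04, adjusted p = 0.0197 and 0.0181), and without replicate 2 they were 6.23 and 5.33. At 24 h, where 4.66% of all genes were called higher, the difference was 2.45 for OPB43779 (SE 0.84, adjusted p = 0.0102), 0.35 for OPB40699 and -0.02 for OPB45639, and none was called. The OPB45639 means were then 2.32 RPKM on Avicel and 1.22 RPKM on xylan, with only replicate 3 of Avicel above the xylan range. Against CS at 72 h, Avicel was higher for all 3 genes (4.56, 2.45 and 3.82, adjusted p = 7.02e-05, 0.0049 and 7.52e-05), beside 6.42% of all genes. The OPB40699 call was lost on leaving out any of 4 libraries, Avicel replicate 1 or 3 or CS replicate 1 or 2 (1.60, 2.14, 2.40 and 2.51, adjusted p = 0.0997, 0.0470, 0.0437 and 0.0343), and the OPB45639 call without Avicel replicate 1 (adjusted p = 0.0103). Without Avicel replicate 1 the OPB43779 difference was 2.998, and without replicate 2 that of OPB45639 was 5.79, both called.

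In ∆Tgxyr1 the GH30 genes stayed at the limit of detection in all 30 libraries. OPB43779 was at 0 in 20 of them, and OPB40699 and OPB45639 were each at 0 in 27. The highest values were 0.610, 0.294 and 0.188 RPKM, and the estimated reads over all 30 libraries together came to 18 for OPB43779, 4 for OPB40699 and 3 for OPB45639, against 3739, 525 and 1234 over the 28 WT libraries. None of 27 comparisons of Avicel, xylan or CS with 0 h in this strain was called by limma (0 with an unadjusted p under 0.05). None could be, since a call needs a higher mean above 2 RPKM.

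Compared with WT on Avicel, ∆Tgxyr1 was lower for OPB43779 at 24 h (-2.84, SE 0.84, adjusted p = 0.00291), where 4.79% of all genes tested were called lower, and for all 3 genes at 72 h (-4.59, -2.51 and -3.93, adjusted p = 4.64e-06, 0.00101 and 3.36e-06), where 5.47% were. At 72 h all 3 genes were at 0 in every ∆Tgxyr1 library, and the WT means were at least 500-fold, 44.7-fold and 242-fold above the floor there. WT replicate 2 held 1, 3 and 0 reads of OPB43779, OPB40699 and OPB45639, so the groups overlapped for OPB45639. Without WT replicate 3 the 24 h call was lost (-1.17, adjusted p = 0.248), as it was without ∆Tgxyr1 replicate 1 or 2 (-2.78 in both, adjusted p = 0.0104 and 0.0102), and without WT replicate 1 or 3 at 72 h so was that on OPB40699 (-1.66 and -2.20, adjusted p = 0.0507 and 0.0128). Without WT replicate 1 the 72 h differences of OPB43779 and OPB45639 were -3.03 and -2.61, both called. The rise from 0 h to 72 h on Avicel was smaller in ∆Tgxyr1 than in WT for OPB43779 (-4.71, SE 1.19, adjusted p = 0.00143) and OPB45639 (-3.93, SE 1.0, adjusted p = 0.00157), beside 3.53% of all genes called lower, and both calls were lost without WT Avicel replicate 1 (-3.14 and -2.61, adjusted p = 0.0306 and 0.0331) or replicate 3 (-4.01 and -3.28, adjusted p = 0.0115 and 0.0137). On xylan, where 5.59% of all genes at 24 h and 6.51% at 72 h were called lower, and under CS no difference from WT was called (0 of 18 with an unadjusted p under 0.05), the WT levels there being under 2 RPKM.

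The largest levels of OPB43779 were measured on Avicel in the 2 ace deletion strains. In ∆Tgace1 the 24 h values were 280.9, 903.2 and 863.0 RPKM and the 72 h values 935.0, 1095 and 92.5 RPKM. In ∆Tgace2 they were 507.2, 551.3 and 408.7 RPKM and then 121.7, 315.2 and 251.0 RPKM. All 6 libraries of 24 h lay above the WT libraries, but at 72 h the WT library with 210.4 RPKM lay within the ∆Tgace2 range and above the lowest ∆Tgace1 library. At 4 h the gene was not above 1.48 RPKM in either strain.

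OPB43779 rose in both strains on Avicel against their own 0 h. The differences were 9.22 at 24 h and 8.82 at 72 h in ∆Tgace1 (SE 0.84, adjusted p = 9.57e-15 and 6.71e-14) and 8.48 and 7.29 in ∆Tgace2 (SE 0.84, adjusted p = 1.53e-13 and 5.26e-11). All 4 were also called with only the compared groups in the fit (adjusted p between 4.24e-05 and 0.00645) and with any library left out. OPB40699 and OPB45639 rose in the same 4 comparisons to much lower levels, with group means of 8.76 to 23.1 RPKM for OPB40699 and 7.48 to 26.6 RPKM for OPB45639. All 6 gene and time combinations at 24 and 72 h were called in each strain, where 4.27% and 4.07% of all genes were called higher in ∆Tgace1 and 7.24% and 5.79% in ∆Tgace2. In the fit of the compared groups the ∆Tgace1 24 h differences of OPB40699 and OPB45639 were not called (adjusted p = 0.0267 and 0.0543), replicate 1 being at 4.51 and 2.03 RPKM beside 27.7 to 37.0 and 18.2 to 22.6 RPKM in the others.

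**Figure D2:**
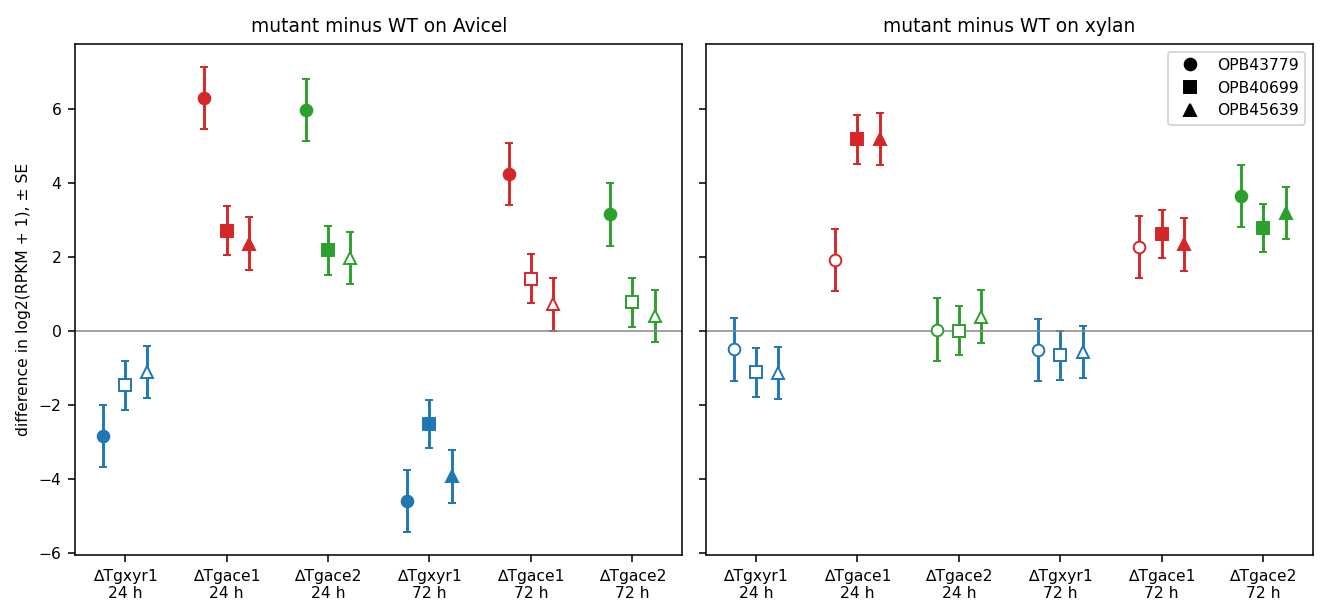
Differences in log2(RPKM + 1) between each deletion strain and WT on Avicel and on xylan at 24 and 72 h, with 1 SE; filled symbols passed the call limits of the fit over all groups, open symbols did not. On Avicel OPB43779 had the largest differences from WT in both ace strains (6.29 and 5.97 at 24 h), and on xylan at 24 h OPB40699 and OPB45639 differed in ∆Tgace1 by 5.17 and 5.19.

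Against WT on Avicel at 24 h, OPB43779 was higher in ∆Tgace1 by 6.29 (SE 0.84, adjusted p = 3.27e-09) and in ∆Tgace2 by 5.97 (SE 0.84, adjusted p = 1.13e-08), and no single library left out changed either call. OPB40699 was higher by 2.71 (SE 0.66, adjusted p = 0.000518) and 2.17 (SE 0.66, adjusted p = 0.00391), and OPB45639 by 2.36 (SE 0.71, adjusted p = 0.00497) in ∆Tgace1, while its 1.97 in ∆Tgace2 (SE 0.71, adjusted p = 0.0153) was not called. Of the 3 genes, 3 were called in ∆Tgace1 and 2 in ∆Tgace2, where 4.16% and 7.52% of all genes tested were called higher. The calls on OPB40699 and OPB45639 were each lost on leaving out WT replicate 1 or 2 or ∆Tgace1 replicate 2, and for OPB45639 also ∆Tgace1 replicate 3 (1.82 to 2.18, adjusted p = 0.0123 to 0.0566), and for OPB40699 in ∆Tgace2 on leaving out WT replicate 1 or 2 or ∆Tgace2 replicate 2 or 3 (1.44 to 2.10, adjusted p = 0.0152 to 0.0896), while without WT replicate 3 it was 3.45. With only the compared groups in the fit, adjusted p for OPB43779 was 0.0376 in ∆Tgace1 and 0.0187 in ∆Tgace2.

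At 72 h on Avicel the comparison with WT rested on WT replicate 2. OPB43779 was called higher in ∆Tgace1 (4.25, SE 0.84, adjusted p = 2.52e-05) and in ∆Tgace2 (3.15, SE 0.84, adjusted p = 0.00181), beside 3.26% and 3.9% of all genes, but without that library the differences were 1.98 (adjusted p = 0.0162) and 0.88 (adjusted p = 0.356). The ∆Tgace2 call was also lost without ∆Tgace2 replicate 2 (2.87, adjusted p = 0.0145). OPB40699 and OPB45639 were not called in either strain. The OPB45639 means were 26.6 RPKM in ∆Tgace1 and 20.04 RPKM in ∆Tgace2 beside 43.4 RPKM in WT, whereas the log2 differences were 0.72 and 0.40, so mean RPKM and mean log2 values differed in direction. With a weight estimated for each library, which gave little weight to libraries unlike their group, OPB45639 was lower than WT in both strains (-2.24 and -2.25, adjusted p = 3.27e-07 and 1.48e-06).

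The change from 0 h to Avicel was also compared between strains. For OPB43779 at 24 h it was larger than in WT by 6.27 in ∆Tgace1 (SE 1.19, adjusted p = 2.31e-05) and by 5.52 in ∆Tgace2 (SE 1.19, adjusted p = 0.00014), where 5.59% and 7.76% of all genes were called higher. At 72 h it was larger by 4.23 in ∆Tgace1 (SE 1.19, adjusted p = 0.00897), beside 1.61% of all genes, but that call was lost with any of 9 single libraries left out, down to 1.96 without WT Avicel replicate 2 (adjusted p = 0.13). The corresponding differences of OPB40699 and OPB45639 were not called in either strain at any time. ∆Tgace1 and ∆Tgace2 were not called different from each other on Avicel for any of the 3 genes by limma (0 of 9 with an unadjusted p under 0.05).

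On xylan the 2 ace strains differed in time. In ∆Tgace1 at 24 h OPB40699 was at 203.6, 7.57 and 273.1 RPKM and OPB45639 at 165.5, 14.0 and 204.0 RPKM, the highest levels of both genes in the series, while OPB43779 was at 10.51, 0.0685 and 11.4 RPKM. Replicate 2 was the low library for all 3. In ∆Tgace2 at the same time the 3 genes were at the WT level, with 0.520, 0.314 and 0.527 RPKM for OPB43779, 0.948, 0.654 and 2.20 RPKM for OPB40699 and 1.15, 1.44 and 3.50 RPKM for OPB45639. At 72 h the ∆Tgace2 libraries were at 17.2, 16.8 and 21.5 RPKM for OPB43779, 12.3, 7.47 and 10.4 RPKM for OPB40699 and 17.0, 11.3 and 9.80 RPKM for OPB45639. The ∆Tgace1 libraries were then at 12.2, 2.30 and 8.49, at 15.3, 1.94 and 17.99, and at 14.1, 0.970 and 13.0 RPKM, with replicate 2 again lowest.

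Against their own 0 h the xylan levels rose in 5 of 6 gene and time combinations of ∆Tgace1 and in 3 of 6 of ∆Tgace2. In ∆Tgace1 at 24 h, where 6.41% of all genes were called higher, OPB40699 rose by 6.29 (SE 0.66, adjusted p = 1.06e-12) and OPB45639 by 6.32 (SE 0.71, adjusted p = 1.12e-11), at least 734-fold and 616-fold above the floor, and OPB43779 was not called (2.40, adjusted p = 0.0133). At 72 h, where 5.97% were, all 3 rose (2.88, 3.28 and 2.90, adjusted p = 0.00267, 1.91e-05 and 0.000352), OPB43779 not without ∆Tgace1 xylan replicate 1 or 3 (2.46 and 2.70, adjusted p = 0.0234 and 0.0135). With only the compared groups in the fit 1 of these 5 calls was made, that on OPB43779 at 72 h (adjusted p = 0.00811), and adjusted p was 0.0248 and 0.0126 for OPB40699 and OPB45639 at 24 h and 0.0170 and 0.0354 at 72 h. In ∆Tgace2 none was called at 24 h (0.09, 1.07 and 1.48), where 5.19% of all genes were, and all 3 rose at 72 h (3.83, 3.39 and 3.70, adjusted p = 7.41e-05, 9.22e-06 and 7.35e-06), where 8.47% were.

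Against WT on xylan at 24 h, ∆Tgace1 was higher for OPB40699 (5.17, SE 0.66, adjusted p = 5.9e-10) and OPB45639 (5.19, SE 0.71, adjusted p = 4.4e-09), where 4.42% of all genes tested were called higher. All 3 ∆Tgace1 libraries lay above the WT libraries for both genes, and both calls remained with any library left out, but with only the compared groups in the fit adjusted p was 0.0292 and 0.0124. OPB43779 was not called (1.92, SE 0.84, adjusted p = 0.0479), with ∆Tgace1 replicate 2 below all WT libraries. At 72 h ∆Tgace1 was higher for OPB40699 (2.62, SE 0.66, adjusted p = 0.000528) and OPB45639 (2.34, SE 0.71, adjusted p = 0.00384), beside 3.3% of all genes. The OPB40699 call was lost without ∆Tgace1 replicate 3 (2.13, adjusted p = 0.0119), and that on OPB45639 without ∆Tgace1 replicate 1 or 3 or WT replicate 2 (1.83, 1.89 and 2.05, adjusted p = 0.0462, 0.0410 and 0.0261). Both 72 h calls were lost with only the compared groups in the fit (adjusted p = 0.0315 and 0.0588).

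In ∆Tgace2 no GH30 gene was called at 24 h on xylan, where 1.48% of all genes were called higher, the differences from WT being 0.04, 0.00 and 0.39, and all 3 were called higher at 72 h, where 3.78% of all genes tested were. The 72 h differences were 3.65 (SE 0.84, adjusted p = 0.000228) for OPB43779, 2.78 (SE 0.66, adjusted p = 0.000329) for OPB40699 and 3.18 (SE 0.71, adjusted p = 0.000141) for OPB45639. These 3 calls were also made with only the compared groups in the fit (adjusted p = 4.29e-05, 0.00159 and 0.000903) and with any library left out, and every ∆Tgace2 library lay above every WT library. They were the only GH30 calls against WT that held in both ways. The shares of all genes whose calls did so, or whose libraries did not overlap, are not given here.

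The rise from 0 h to 24 h on xylan was larger in ∆Tgace1 than in WT by 5.17 for OPB40699 (SE 0.93, adjusted p = 1.66e-05) and by 5.19 for OPB45639 (SE 1.0, adjusted p = 5.23e-05), beside 2.6% of all genes called higher, a comparison added after the values had been seen. Directly against ∆Tgace2 at 24 h, ∆Tgace1 was higher by 5.17 for OPB40699 (SE 0.66, adjusted p = 3.21e-09) and 4.80 for OPB45639 (SE 0.71, adjusted p = 1.07e-07), beside 2.73% of all genes, also added then. Neither was called with only the compared groups in the fit (adjusted p = 0.0377 and 0.0237). At 72 h the 2 strains were not called different. In the fit over all groups none of the xylan responses of ∆Tgace2 was called different from that of WT (3.20, 2.73 and 3.13 at 72 h, limma adjusted p = 0.0332, 0.0193 and 0.0122). Of these 9 combinations, also added after the values had been seen, 3 had an unadjusted p under 0.05. With only the compared groups in the fit, 3 of them were called.

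Within 1 strain, the 3 genes answered the 2 polysaccharides in different ways. In ∆Tgace1 at 24 h OPB43779 was higher on Avicel than on xylan by 6.82 (SE 0.84, adjusted p = 8.89e-10), whereas OPB40699 was lower by 2.11 (log2 difference -2.11, SE 0.66, adjusted p = 0.00961) and OPB45639 lower by 2.85 (-2.85, SE 0.71, adjusted p = 0.00105), with 1.97% of all genes called higher and 3.08% lower. The OPB43779 call remained with any library left out. The calls on the other 2 were lost without ∆Tgace1 xylan replicate 1 or 3 or Avicel replicate 1 (OPB40699 -1.41, -1.20 and -1.25, adjusted p = 0.148, 0.227 and 0.179, OPB45639 -2.32, -2.17 and -1.91, adjusted p = 0.0221, 0.0339 and 0.0450), and xylan replicate 2 was within the Avicel range for both. Without xylan replicate 2 the OPB40699 difference was -3.70. With only the compared groups in the fit, adjusted p was 0.0325, 0.449 and 0.245 for OPB43779, OPB40699 and OPB45639. At 72 h OPB43779 was again higher on Avicel (5.94, SE 0.84, adjusted p = 1.18e-07), beside 2.62% of all genes, though not with only the compared groups in the fit (adjusted p = 0.0437), and OPB40699 and OPB45639 were not called (0.65 and 1.75).

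In ∆Tgace2 OPB43779 was higher on Avicel than on xylan at 24 h by 8.39 (SE 0.84, adjusted p = 6.82e-13) and at 72 h by 3.46 (SE 0.84, adjusted p = 0.000963), beside 3.97% and 2.19% of all genes. OPB40699 was higher at 24 h by 2.52 (SE 0.66, adjusted p = 0.0012), and OPB45639 was not called (1.56, SE 0.71, adjusted p = 0.0673). These 3 calls were made with only the compared groups in the fit (adjusted p = 1.63e-05, 0.00279 and 0.00205) and with any library left out. At 72 h OPB40699 and OPB45639 differed between Avicel and xylan by -0.16 and 0.58, neither called, with group means of 8.76 and 10.04 RPKM for OPB40699 and 20.04 and 12.7 RPKM for OPB45639.

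The make-up of GH30 transcripts could be compared between the polysaccharides in ∆Tgace1 at 24 and 72 h and in ∆Tgace2 at 72 h, where all libraries had a sum above 5 RPKM. In ∆Tgace1 at 24 h OPB43779 made up 95.5% ± 2.01 (SD, n = 3) of the summed RPKM of the 3 genes on Avicel and 1.8% ± 1.31 (SD, n = 3) on xylan, and the ranges, 93.8 to 97.7% and 0.317 to 2.77%, did not overlap. At 72 h the shares were 84.9% ± 21.1 and 31.7% ± 11.5 in ∆Tgace1 and 86.8% ± 9.18 and 45.3% ± 7.5 in ∆Tgace2 (SD, n = 3), again without overlap. In each of these 3 comparisons the two-sided exact permutation test over libraries gave p = 0.1 (Benjamini-Hochberg adjusted p = 0.1), the smallest that 3 against 3 libraries allow, so no test of this size could pass 0.05. On xylan at 24 h in ∆Tgace1, OPB40699 made up 53.6, 35.0 and 55.9% of the sum and OPB45639 43.6, 64.6 and 41.8%. The library of ∆Tgace1 on Avicel at 72 h with the lowest OPB43779 share, replicate 3 at 60.5%, was also the one closest in all genes to a ∆Tgace1 xylan library. Its part in these values was not tested.

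**Figure D3:**
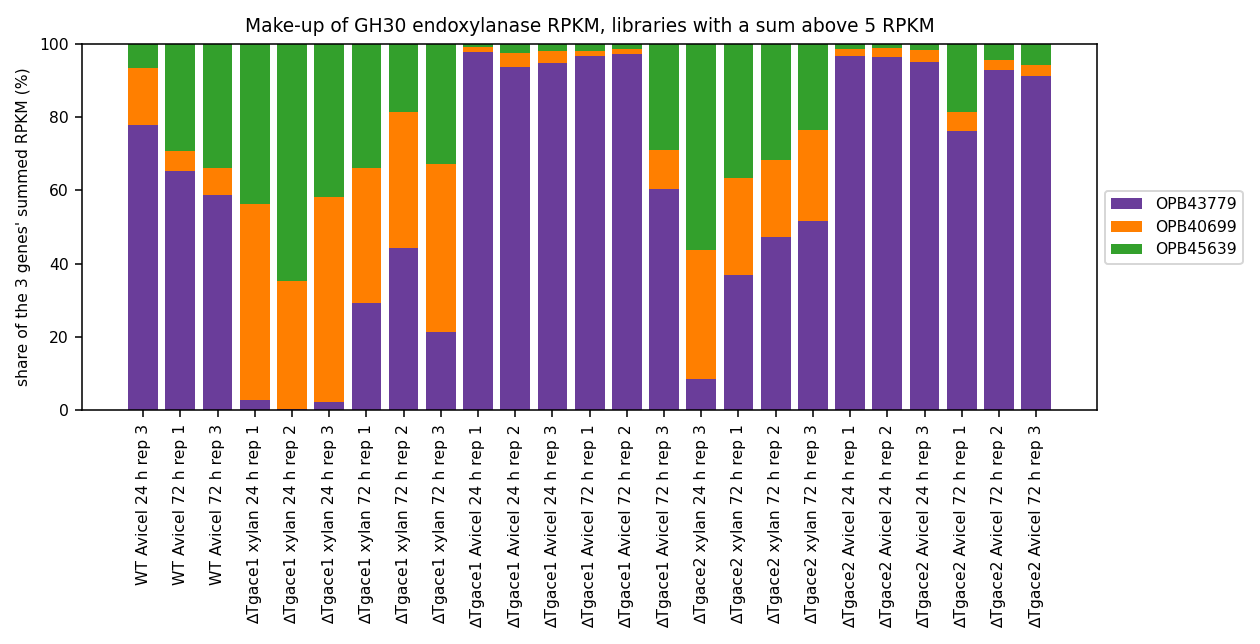
Share of each GH30 endoxylanase gene in their summed RPKM (%), for the 25 libraries in which the sum was above 5 RPKM. OPB43779 made up 93.8 to 97.7% on Avicel and 0.317 to 2.77% on xylan in ∆Tgace1 at 24 h, the remainder being OPB40699 and OPB45639.

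The group with the highest mean was the same for OPB40699 and OPB45639 and different for OPB43779. For OPB43779 the 4 Avicel groups of the ace strains at 24 and 72 h came first, with means from 229 to 707 RPKM, followed by WT on Avicel at 72 h (91.0) and 24 h (27.2), ∆Tgace2 on xylan at 72 h (18.5) and ∆Tgace1 on xylan at 72 and 24 h (7.67 and 7.31). Of the 33 neighbours in this order, 31 overlapped in their libraries, the exceptions being ∆Tgace2 on Avicel at 24 h above the same strain at 72 h, and ∆Tgace2 on xylan at 72 h above ∆Tgace1. For OPB40699 ∆Tgace1 on xylan at 24 h came first (161 RPKM), followed by 8 groups between 23.1 and 5.19 RPKM, and all 33 neighbours overlapped. For OPB45639 the same group came first (128 RPKM) and WT on Avicel at 72 h second (43.4 RPKM), and 32 of 33 neighbours overlapped. From rank 10 down, group means were at most 0.857, 1.27 and 2.03 RPKM for OPB43779, OPB40699 and OPB45639. Many of these groups were at or near the limit of detection, where neighbours overlap for lack of expression. The pairs that did not overlap all lay above that rank. The overlap counts thus say little about spread between expressed groups, and such counts over all genes are not given here.

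Over the 34 group means of log2(RPKM + 1), OPB40699 and OPB45639 were correlated at r = 0.976, OPB43779 and OPB40699 at 0.807 and OPB43779 and OPB45639 at 0.799. Deviations of the 100 libraries from their group means were also correlated, at 0.904, 0.807 and 0.781, so the 3 genes varied together between replicates. These points share libraries and many groups near 0, and without the 10 ∆Tgxyr1 groups the first set was 0.972, 0.776 and 0.767. The grouping by pattern was not that by protein sequence. Over the first 399 residues of the proteins in the study's protein list, OPB43779 and OPB40699 had 63.3% identical aligned residues, against 35.8% for OPB43779 and OPB45639 and 40% for OPB40699 and OPB45639. Whether reads of 1 gene were placed on another was not tested.

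**Figure D4:**
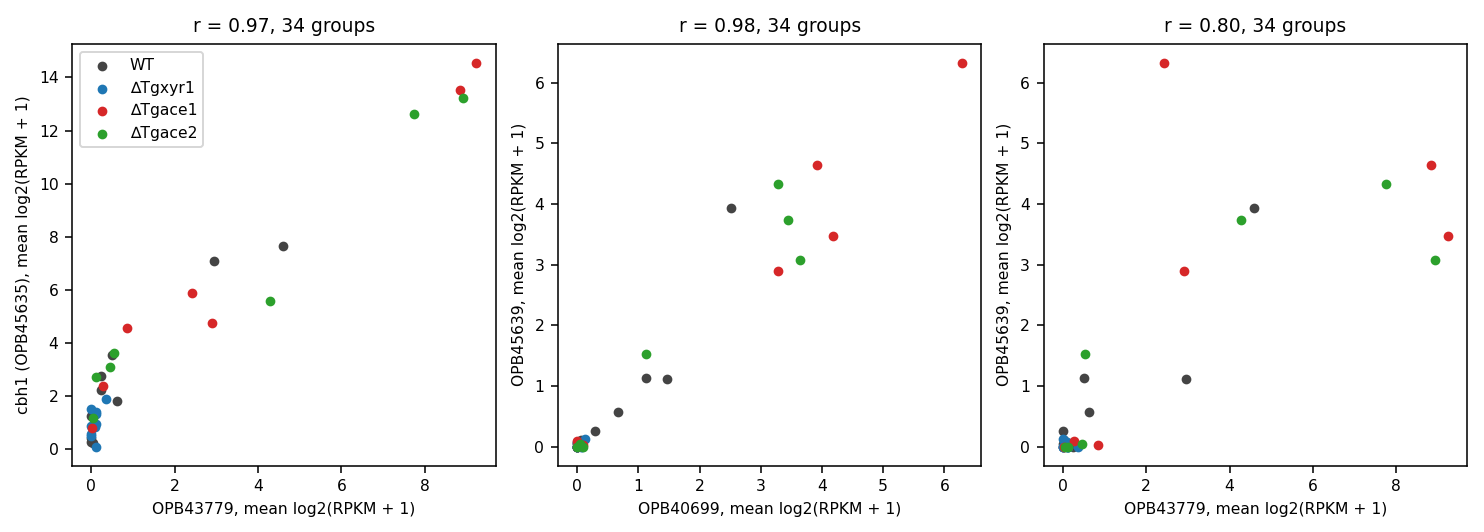
Group means of log2(RPKM + 1) over the 34 groups, with cbh1 against OPB43779, OPB45639 against OPB40699 and OPB45639 against OPB43779; colours separate the strains. The correlations were 0.97, 0.98 and 0.80, and in the last panel ∆Tgace1 on xylan at 24 h lay far above the other groups of like OPB43779 level.

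By the same measure, the 5 genes with the pattern most like OPB43779 were OPB45659, a GH10 family protein (r = 0.988), OPB45638, a conserved hypothetical protein (0.984), OPB43780, the glucuronoyl methylesterase cip2, which in T. reesei is expressed together with cellulases (0.984), cbh1 (0.973) and OPB41189, CIP1 (0.973). All 5 had their highest group mean on Avicel in ∆Tgace1. The 5 most like OPB40699 were OPB45639 (0.976), OPB40698, an MFS sugar transporter (0.972), OPB40700, a protein of family GH67, which holds α-glucuronidases (0.968), OPB37159, a lipase of the GDSL type (0.966) and OPB41202, a GH11 endoxylanase (0.955). The list of OPB45639 held OPB40699 (0.976), OPB41202 (0.966), OPB40700 (0.964), OPB37159 (0.952) and OPB40698 (0.94). The lists of OPB40699 and OPB45639 thus shared 4 of 5 genes other than each other, all with their highest mean on xylan at 24 h in ∆Tgace1, and neither shared a gene with that of OPB43779. The identifiers OPB40698, OPB40699 and OPB40700 run in sequence, as do OPB43779 and OPB43780, and OPB45638 and OPB45639. Gene positions were not analysed here.

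Against the regulators that were measured, OPB43779 was correlated at 0.782 with TgXyr1 and 0.88 with the ACE3 homolog OPB36832. OPB40699 and OPB45639 were correlated at 0.702 and 0.705 with TgXyr1 and at 0.722 and 0.711 with OPB36832. In the ∆Tgxyr1 groups TgXyr1 was near 0 by deletion. Over the 24 groups without them, the TgXyr1 values of OPB43779, OPB40699 and OPB45639 were 0.852, 0.676 and 0.679. Those of OPB36832 were then 0.888, 0.703 and 0.688. Deviations of the 100 libraries from their group means were correlated less with TgXyr1, at 0.538, 0.575 and 0.448 for these genes. With OPB36832 they were correlated at 0.658, 0.75 and 0.646. The correlations of all other genes with these regulators are not given here. In ∆Tgace1 on xylan at 24 h, where OPB40699 and OPB45639 were highest, TgXyr1 was at 25.0, 7.92 and 27.1 RPKM. In the same strain on Avicel at 24 h, where OPB43779 was high, it was at 80.2, 198.5 and 89.9 RPKM.

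The wider sets of xylan and cellulose enzymes moved as follows beside the GH30 genes. On Avicel at 72 h in WT, 6 of 12 xylan degradation genes (endoxylanases, β-xylosidases, α-glucuronidase, acetyl xylan esterases and arabinofuranosidases) and all 7 cellulase genes were called higher than at 0 h, with medians of 2.87 and 4.28, beside 2.85% of all genes tested. On xylan at 24 h in WT, 9 of 12 xylan genes were called higher (median 3.17) and none of the 7 cellulase genes, beside 4.58% of all genes tested. None of the GH30 genes was called there, and none could be, their means being below the 2 RPKM that a call needs. On xylan at 24 h, ∆Tgace1 minus WT, 10 of 12 xylan genes were called higher (median 4.06, beside 5.17 for the GH30 genes and 0.14 over all genes tested) and 2 of 7 cellulase genes, beside 4.42% of all genes tested. The same strain comparison on Avicel at 24 h called 7 of 12 xylan genes higher and 1 lower, and 7 of 7 cellulase genes higher (medians 3.45 and 7.22, beside 2.71 for the GH30 genes), where 4.16% of all genes tested were called higher.

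Among the endoxylanases of other families, XYN3 (OPB40690, family GH10) was at 361.5, 1950 and 1710 RPKM in ∆Tgace1 on Avicel at 24 h, where OPB43779 was high, but at 2.11, 4.11 and 0.146 RPKM at 72 h, where OPB43779 was still at 92.5 to 1095. The GH11 gene OPB41202 was at 2695, 451.7 and 3602 RPKM in ∆Tgace1 on xylan at 24 h, the group in which OPB40699 and OPB45639 were highest, with the same low library.

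3 further genes annotated to family GH30 have other substrates by their names, and their patterns differed in part. OPB44809, a β-1,6-glucanase that acts on fungal walls, was highest at 4 h in WT on all 3 media, with means of 319 RPKM on xylan, 319 on Avicel and 232 under CS. OPB41026, of the same kind, had means of 13.9 RPKM on glucose and at most 5.95 RPKM elsewhere in WT. Its values in WT on Avicel at 72 h, 15.6, 0 and 2.30 RPKM, had the replicate order of the GH30 endoxylanases. In ∆Tgace1 OPB41026 was at 36.9, 14.1 and 59.4 RPKM on Avicel at 72 h and at 47.7, 48.4 and 8.46 RPKM on glucose. OPB44551, a β-1,6-galactanase, was highest in ∆Tgace1 on xylan at 4 h, with a mean of 70.2 RPKM, when the 3 GH30 endoxylanases were below 0.48 RPKM in every library. In WT on Avicel at 72 h its values, 6.18, 0.332 and 1.11 RPKM, also had the replicate order of the endoxylanases.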

How the data were processed

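The authors filtered reads with FASTX-Toolkit, aligned them with Bowtie2 in TopHat2 and computed expression with Cufflinks and Cuffnorm (the labels also name Cuffdiff). The deposited table holds the authors' RPKM of 11244 genes in 100 libraries, with no counts. Reads were placed on the authors' NCBI assembly of strain NJAU4742. The annotation version is not given in the sources used here, and the methods text calls the values FPKM. Summed RPKM per library was 553844 to 3295522 (median 1504076), with 1003 to 2173 genes at 0. Relative depth was read from the steps of low values (up to 6 reads, 1362 genes), and the deepest library had 7.39 times the reads of the shallowest by that estimate.

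Genes above 1 RPKM in at least 2 libraries (10026, the 3 GH30 endoxylanase genes among them) were tested as log2(RPKM + 1) with limma 3.58.1 in R 4.3.3 (moderated statistics with a mean trend, 1 mean for each of 34 groups, 66 residual degrees of freedom) and Benjamini-Hochberg adjustment over all genes. In the fit over all groups, a p-value sets a difference against 1 spread per gene, pooled over the libraries within all 34 groups. It does not reflect a spread that differs between the groups compared. Scripts were tested on simulated data with 1 spread per gene for all groups and effects placed on genes of middle level. That test does not cover genes at 0 in many libraries with uneven spread, as the GH30 genes are. The alternatives were pseudocounts of 0.1 and 2, no filter, only the groups compared, the replicate number as a block, library weights, scaling to an equal median, an unadjusted p of 0.01, a fold limit of 1 on the log2 scale, and each library left out. Protein identity came from alignment with BLOSUM62. The GH30 genes, the enzyme lists and the rule for named genes (the members, the lists and the 5 genes most correlated with each member) were chosen with earlier results of these data known. Sequences were not printed.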

Additional observations from a re-analysis of the deposited data

Results flagged for a closer look

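7 differences between strains in the response to a carbon source passed the test of the difference itself in the fit over all groups. Each strain and carbon source had 9 gene and time combinations. On Avicel at 72 h the response was smaller in ∆Tgxyr1 than in WT by a log2 difference of -4.71 for OPB43779 and -3.93 for OPB45639. There 3.53% of all genes were called lower. On Avicel the response of OPB43779 was larger than in WT by 6.27 in ∆Tgace1 at 24 h, by 4.23 in ∆Tgace1 at 72 h and by 5.52 in ∆Tgace2 at 24 h. In these comparisons 5.59%, 1.61% and 7.76% of all genes were called higher. On xylan at 24 h the response was larger in ∆Tgace1 than in WT by 5.17 for OPB40699 and by 5.19 for OPB45639. That was beside 2.6% of all genes, in a comparison added after the values had been seen. With only the compared groups in the fit none of the 7 was called, and adjusted p (limma) was 0.171 and 0.187 for the ∆Tgxyr1 pair, 0.024, 0.621 and 0.0155 for the ace strains on Avicel, and 0.0466 and 0.0172 on xylan.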

How the results depend on the processing

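No call of a GH30 gene changed direction under any setting run. The counts below are of GH30 calls, and the shares of all genes called under these settings are not given here. With library weights, 2 differences of OPB45639 at 72 h on Avicel that had not been called changed sign and were called, from 0.72 to -2.24 (∆Tgace1 minus WT) and from 0.40 to -2.25 (∆Tgace2 minus WT), and the cause was not tested. With only the compared groups in the fit, which leaves fewer libraries and no spread from silent groups, the number of calls fell to 0 from 4 (WT Avicel against 0 h), 2 (WT Avicel against xylan), 3 (WT Avicel against CS), 4 (∆Tgxyr1 against WT on Avicel), 4 and 4 (∆Tgace1 against WT on Avicel and on xylan), 3 (∆Tgace2 against WT on Avicel), 4 (∆Tgace1 Avicel against xylan), 2, 2 and 1 (Avicel responses of ∆Tgxyr1, ∆Tgace1 and ∆Tgace2 minus WT), 2 (xylan response of ∆Tgace1 minus WT) and 2 (∆Tgace1 against ∆Tgace2 on xylan), and from 5 to 1 for ∆Tgace1 xylan against its 0 h, whereas it rose from 0 to 3 for the xylan response of ∆Tgace2 minus WT. A pseudocount of 0.1 gave 2 calls in place of 4 for ∆Tgace1 Avicel against xylan and 4, 1 and 0 in place of 2, 2 and 1 for the Avicel responses. No filter gave 1 in place of 2 for the Avicel response of ∆Tgace1. Library weights gave 4, 5 and 4 for the Avicel responses, 6 and 3 for the xylan responses of ∆Tgace1 and ∆Tgace2, and 1 in place of 0 for ∆Tgace1 against ∆Tgace2 on Avicel. An unadjusted p gave 3 in place of 0 for the xylan response of ∆Tgace2. Same-numbered libraries did not deviate together (median r of -0.0015 over 1618 pairs), and the replicate block changed 1 count, from 0 to 1 for the xylan response of ∆Tgace2. Leaving out each library gave 1 to 4 calls for WT Avicel against xylan, 1 to 4 against CS, 2 to 5 for ∆Tgace1 against WT on Avicel and 2 to 5 on xylan, 2 to 4 for ∆Tgace1 Avicel against xylan, 0 to 4, 1 to 4 and 1 to 2 for the Avicel responses of ∆Tgxyr1, ∆Tgace1 and ∆Tgace2, and 2 to 4 for the xylan response of ∆Tgace1. Scaling moved the median of all genes by over 0.1 in 10 of 90 comparisons (from -0.11 to 0.18) and no count by more than 1.5 times. With a pseudocount of 0.1, 14 of the 15 most alike genes were the same and the median correlation between the members was 0.865 in place of 0.807.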
